A study of Homo sapiens with 12 samples.

Results

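The genes described here are 10 keratins, KRT5, KRT7, KRT8, KRT14, KRT15, KRT17, KRT18, KRT19, KRT80 and KRT81, found by their symbols in the deposited count table. That table holds 20289 genes, of which 55 are keratin genes, so the members are 10 of 55. They were chosen by symbol with earlier results of these data known, among them the CPM values of KRT14 under the CD44 and the control hairpin, where KRT14 was lower with the CD44 hairpin. Which other values entered is not on record, so every comparison of the members is given as a description. Their counts of calls and of groups without overlap are set beside the same measure over all genes. Of the members 9 passed the filter on low counts, and KRT17, with 2 to 6 counts per library, did not. KRT17 therefore has levels below and no test.

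RNA was measured in a long-established human glioblastoma line, U251, with 4 groups and 3 libraries in each. Knockdown temozolomide cells carried a lentiviral short hairpin against CD44, labelled shCD44, and were kept for 24 h in 50 µM temozolomide, an alkylating drug that damages DNA. Knockdown DMSO cells carried the same hairpin and received DMSO, the solvent, for 24 h. Control temozolomide cells received the drug and control DMSO cells the solvent, both with genotype WT. The titles call the drug-treated controls NC and the DMSO controls shCtrl, while the file columns name both NC. They were read as the same control hairpin, and the drug comparison in control cells and the hairpin comparison under temozolomide rest on that reading. All 4 groups received a lentivirus, only 1 hairpin name against CD44 appears, and it is not labelled whether replicate libraries came from separate cultures. The p-values therefore measure the spread between these libraries, which may be technical.

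Keratins are the intermediate filament proteins of epithelial cells. A filament is built from pairs of 1 type I and 1 type II keratin, so the RNAs of partners are usually made together. KRT5 (type II) pairs with KRT14 or KRT15 (type I) in the basal layer of stratified epithelium, and KRT8 (type II) pairs with KRT18 (type I) in simple epithelium. Astrocytes and their tumours are instead known for vimentin and glial fibrillary acidic protein, intermediate filament proteins of type III. CD44, the target of the hairpin, is a cell-surface receptor for hyaluronan.

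The members lie in the 2 keratin clusters of the genome. In the GRCh38 annotation of GENCODE v29, joined by gene ID, 6 members are on chromosome 12: KRT80 (chr12:52168996-52192000), KRT7 (chr12:52232520-52252186), KRT81 (chr12:52285913-52291534), KRT5 (chr12:52514575-52520687), KRT8 (chr12:52897187-52949954) and KRT18 (chr12:52948871-52952901). The other 4 are on chromosome 17: KRT15 (chr17:41513743-41522529), KRT19 (chr17:41523617-41528308), KRT14 (chr17:41582279-41586921) and KRT17 (chr17:41619441-41624842). KRT18 is the type I member that sits in the type II cluster, next to its partner KRT8. KRT8 and KRT18 share 525 exonic bases on opposite strands, which is 16.3% of the exonic bases of KRT18 and 7.6% of those of KRT8. KRT81 lies within the span of KRT86 on the other strand, with 0 shared exonic bases. The strand setting of the authors' counting is not given in the sources used here, so reads of such overlaps cannot be told apart.

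Several members have close copies, and the sequences show how closely KRT14 and KRT81 resemble theirs. Each pair is shown at the 90 coding bases where the copies are most alike and at the 90 where they differ most, with differing bases in capitals. Positions count from 1 at the first base of the start codon in the longest coding transcript of GENCODE v29.
KRT14, bases 310 to 399, identical to KRT16 bases 316 to 405: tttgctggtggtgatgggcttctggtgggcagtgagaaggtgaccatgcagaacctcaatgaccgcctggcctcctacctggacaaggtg
KRT14, bases 930 to 1019: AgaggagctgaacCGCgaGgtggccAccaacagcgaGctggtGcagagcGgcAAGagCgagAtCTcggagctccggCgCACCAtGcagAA
KRT16, bases 936 to 1025: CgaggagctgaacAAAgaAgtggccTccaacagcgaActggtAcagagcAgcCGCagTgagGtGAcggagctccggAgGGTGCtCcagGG
KRT81, bases 61 to 150, identical in KRT86: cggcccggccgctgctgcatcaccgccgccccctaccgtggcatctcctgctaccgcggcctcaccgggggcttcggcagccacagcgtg
KRT81, bases 1237 to 1326: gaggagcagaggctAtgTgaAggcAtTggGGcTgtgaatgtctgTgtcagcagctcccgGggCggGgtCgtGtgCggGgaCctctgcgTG
KRT86, bases 1237 to 1326: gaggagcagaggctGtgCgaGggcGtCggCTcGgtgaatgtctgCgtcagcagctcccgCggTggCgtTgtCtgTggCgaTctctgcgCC

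KRT14 and KRT16 differ at 0 of 90 bases in the first stretch and at 25 of 90 in the second, and KRT81 and KRT86 at 0 and at 19. Over the whole coding sequence 86.8% of bases were identical between KRT14 and KRT16, 78.0% between KRT14 and KRT17, 90.4% between KRT81 and KRT86 and 90.2% between KRT81 and KRT83. A read of a given length can be placed uniquely only where no other transcript holds the same bases. Of the 100-base windows of each coding sequence, 39.1% were found unchanged in another gene for KRT81 (37.9% in KRT86), 20.4% for KRT18, all through the overlap with KRT8, and 9.7% for KRT7, all in its antisense gene KRT7-AS. The share was 8.4% for KRT8, whose copies are pseudogenes, 7.0% for KRT14 (4.5% in KRT16) and 2.1% for KRT5, and it was 0 for KRT15, KRT19 and KRT80. The read length is not given in the sources used here. Among the abundant members KRT15 and KRT80 thus had the smallest share at this length, and at 50 bases it was 1.3% and 1.2%.

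**Figure D1:**
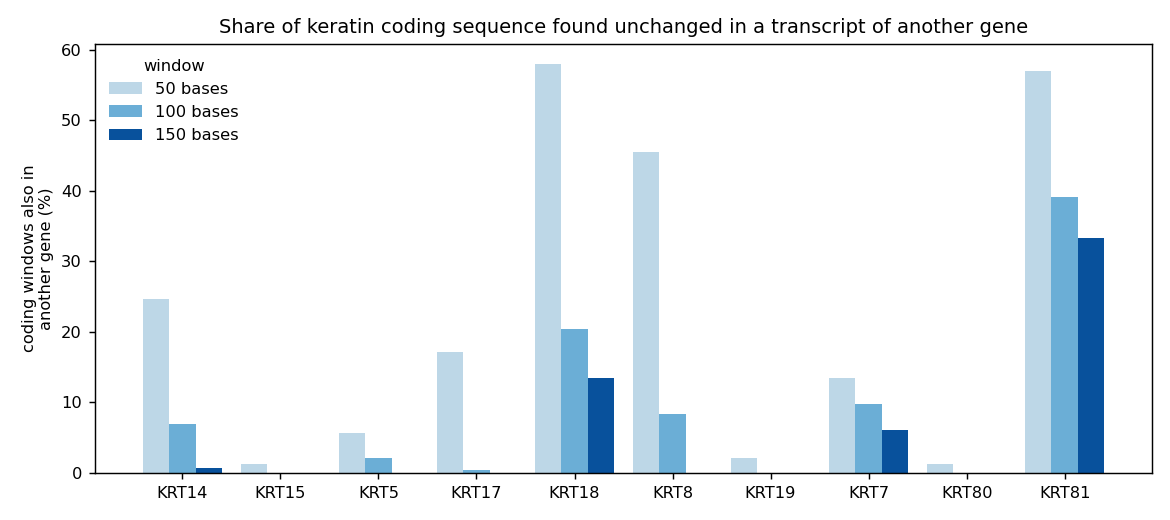
Share of coding windows of each member, in percent, found unchanged in a transcript of another gene, for windows of 50, 100 and 150 bases (bars). At 150 bases the share was 33.3% for KRT81, 13.5% for KRT18, 6.1% for KRT7 and 0.7% for KRT14, and 0 for the other 6.

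The libraries held 13506946 to 24757977 estimated counts, and 12821 of 20289 genes passed the filter. CD44 itself averaged 326 ± 6.6 CPM in knockdown temozolomide and 420 ± 1.03 CPM in knockdown DMSO libraries, against 821 ± 25.8 CPM in control temozolomide and 1091 ± 43.4 CPM in control DMSO libraries (SD, n = 3 each; CPM, counts per 1000000 after TMM scaling). The labelled cell type was only partly visible in its markers. SOX2, SOX9, NES and VIM were present, with SOX2 at 262 to 410 CPM, while GFAP averaged 0.42 to 1.27 CPM in the 4 groups and OLIG2 had no count in any DMSO library. The log2 gap between GC-rich genes (over 60%) and GC-poor genes (under 40%) was -0.10 to -0.04 in knockdown DMSO libraries. It was 0.07 to 0.21 in control DMSO, -0.13 to 0.04 in control temozolomide and -0.12 to 0.07 in knockdown temozolomide libraries. Control DMSO thus lay above control temozolomide as well as knockdown DMSO. The members' longest transcripts have a GC content of 55.7% to 62.9%. With a correction for GC content 7 of 9 members were called lower for the hairpin under DMSO, and 8 were called for the drug in control cells.

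Keratin RNA was abundant in these cells. On the FPKM scale, which corrects for transcript length and so allows genes to be compared, KRT81 averaged 747 FPKM over the 12 libraries and ranked 72nd of the 12821 genes tested. KRT81 is a hair keratin of type II, made in the hair shaft. KRT15 averaged 321, KRT5 258, KRT8 143, KRT18 104, KRT14 94.0 and KRT80 89.5 FPKM, all above at least 93.8% of tested genes. KRT19, a simple-epithelial type I keratin without the usual tail, averaged 1.71 FPKM, KRT7, a type II keratin of glandular epithelium, 1.66 FPKM, and KRT17, a type I keratin of skin appendages and wounds, 0.18 FPKM. The ranges of neighbours in this order overlapped over the 12 libraries, except between KRT81 and KRT15, KRT80 and KRT19, and KRT7 and KRT17. Within a library KRT5 also lay above KRT8, and KRT8 above KRT18, in all 12. Summed over the 10 members, keratin FPKM was 68.4% ± 3.64 of vimentin FPKM in knockdown temozolomide and 84.5% ± 3.49 in knockdown DMSO libraries, against 131% ± 3.6 in control temozolomide and 136% ± 6.24 in control DMSO libraries (SD, n = 3 each).

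Of the 45 other keratin genes 23 had no count in any library, 15 had counts without passing the filter and 7 were tested: KRT4, KRT6A, KRT9, KRT10, KRT16, KRT86 and KRT222. None of the 7 averaged above 6.22 FPKM over the 12 libraries, the value of KRT16. KRT10 and KRT16 nevertheless exceeded the members KRT7, KRT19 and KRT17.

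The same order of groups ran through nearly all members. In 9 of 10, all but KRT19, control DMSO had the highest mean CPM and knockdown temozolomide the lowest, with the single changes in between. How many of all genes have this order was not counted. For KRT17, which did not pass the filter, the order rests on very few counts. For KRT19 the means of knockdown temozolomide and knockdown DMSO were both 1.51 CPM. Against all genes, called at an edgeR Benjamini-Hochberg adjusted p below 0.05, the members' counts were as follows. Knockdown DMSO against control DMSO called 8 of 9 members lower and 0 higher, where 21.4% of all genes tested were called lower and 21.1% higher. Knockdown temozolomide against control temozolomide called 8 lower and 0 higher (20.3% of all genes lower and 22.0% higher), knockdown temozolomide against knockdown DMSO 7 and 0 (13.2% and 9.05%), and control temozolomide against control DMSO 8 and 0 (15.8% and 11.7%). The comparisons share groups and are therefore not independent of each other. Most tested members are abundant, and the share called among genes of like abundance was not counted. KRT14, whose values under the hairpins were known beforehand, is among the members called in each. The median log2 fold change of the 9 was -0.55 and -0.55 for the hairpin under DMSO and under temozolomide, and -0.71 and -0.50 for the drug in knockdown and in control cells. Over all genes tested these medians lay between -0.004 and 0.008. Of all calls 50.3%, 48.0%, 59.4% and 57.4% were falls in these 4 comparisons, and with library totals in place of TMM scaling 39.0%, 38.1%, 29.9% and 31.1% were, while 7, 8, 7 and 8 members were called, all lower. In bulk RNA, fewer cells that make a keratin and less keratin RNA per cell cannot be told apart.

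**Figure D2:**
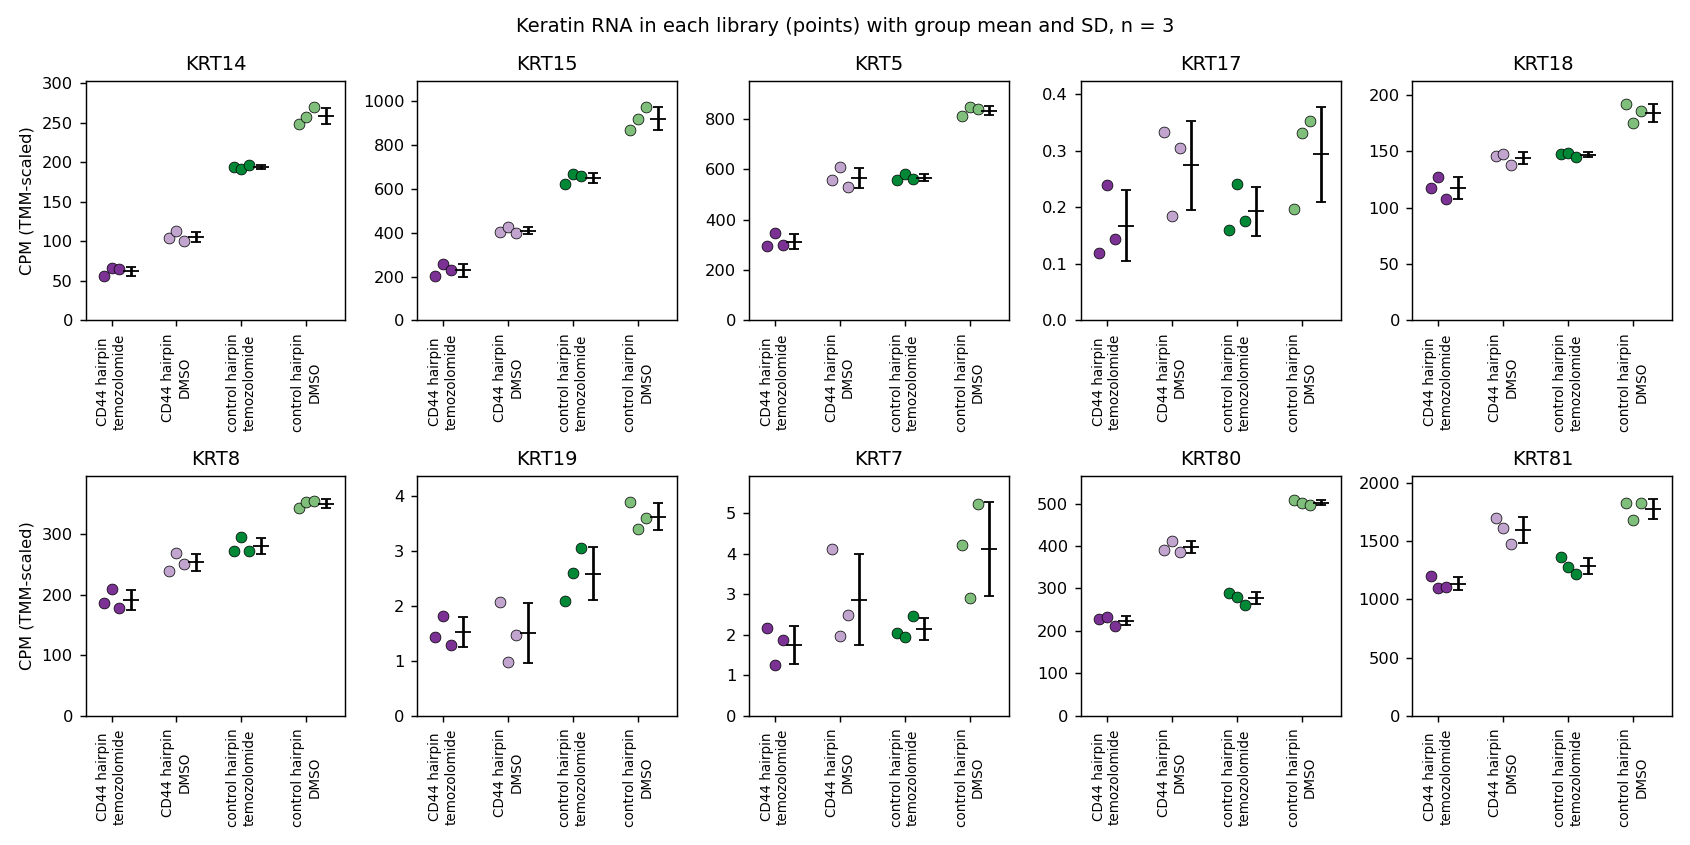
CPM (TMM-scaled) of each member in each library (points), with the mean and SD of each group (dash and bars, n = 3); every axis starts at 0, and the groups run from knockdown temozolomide on the left to control DMSO on the right. KRT14 had 56.0 to 65.8 CPM in knockdown temozolomide and 249 to 270 CPM in control DMSO libraries.

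Among the abundant members KRT14 and KRT15, the type I keratins of the basal set, had the largest hairpin differences. KRT14, the main type I keratin of basal keratinocytes, had 104, 113 and 101 CPM in knockdown DMSO libraries, against 249, 258 and 270 CPM in control DMSO libraries. With the drug in both arms it had 56.0, 65.8 and 65.5 CPM in knockdown temozolomide libraries, against 194, 192 and 197 CPM in control temozolomide libraries. The 4 groups did not overlap, and knockdown libraries were the low ones under either treatment. The log2 fold change was -1.29 (SE 0.05) under DMSO and -1.64 (SE 0.05) under temozolomide, close in size to that of CD44, at -1.38 (SE 0.03) and -1.33 (SE 0.03).

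KRT15, another type I keratin of the basal layer and of hair follicle stem cells, had 405, 426 and 398 CPM in knockdown DMSO libraries, against 866, 919 and 971 CPM in control DMSO libraries. It had 201, 258 and 228 CPM in knockdown temozolomide libraries, against 623, 669 and 657 CPM in control temozolomide libraries. As for KRT14, no group overlapped another. The hairpin log2 fold change was -1.17 (SE 0.06) under DMSO and -1.50 (SE 0.06) under temozolomide.

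KRT5, the type II partner of both, had 560, 609 and 530 CPM in knockdown DMSO libraries, against 812, 847 and 841 CPM in control DMSO libraries. It had 294, 347 and 298 CPM in knockdown temozolomide libraries, against 557, 582 and 563 CPM in control temozolomide libraries. Knockdown libraries again lay below all control libraries of the same treatment, while knockdown DMSO and control temozolomide overlapped each other. The hairpin log2 fold change was -0.56 (SE 0.05) and -0.86 (SE 0.05), smaller than for the type I members of the set. KRT17 had 2, 5 and 2 counts in knockdown temozolomide and 5, 3 and 6 in knockdown DMSO libraries, against 4, 4 and 3 in control temozolomide and 3, 5 and 6 in control DMSO libraries. At this depth, where 3 counts are 0.12 to 0.215 CPM, no difference of KRT17 was detectable.

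Because KRT14 and KRT15 were lower with the hairpin by more than KRT5, the balance within the set differed between the cells. The ratio of KRT14 to KRT5 FPKM within a library was 0.268 ± 0.025 in knockdown temozolomide and 0.25 ± 0.003 in knockdown DMSO, against 0.459 ± 0.015 in control temozolomide and 0.416 ± 0.012 in control DMSO libraries (SD, n = 3 each). For KRT15 to KRT5 it was 0.939 ± 0.065 and 0.927 ± 0.030 in the knockdown groups, in the same order, and 1.48 ± 0.041 and 1.42 ± 0.067 in the control groups. No knockdown library overlapped a control library in either ratio. KRT14 was known to be lower with the CD44 hairpin when the members were chosen, so its ratio is a description only. How many other gene pairs separate in this way was not counted. A ratio within a library does not depend on library scaling, but it shows only that the genes changed unequally. Summed type I over summed type II members was 0.288 ± 0.029, 0.308 ± 0.011, 0.530 ± 0.028 and 0.513 ± 0.023 in knockdown temozolomide, knockdown DMSO, control temozolomide and control DMSO libraries.

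**Figure D3:**
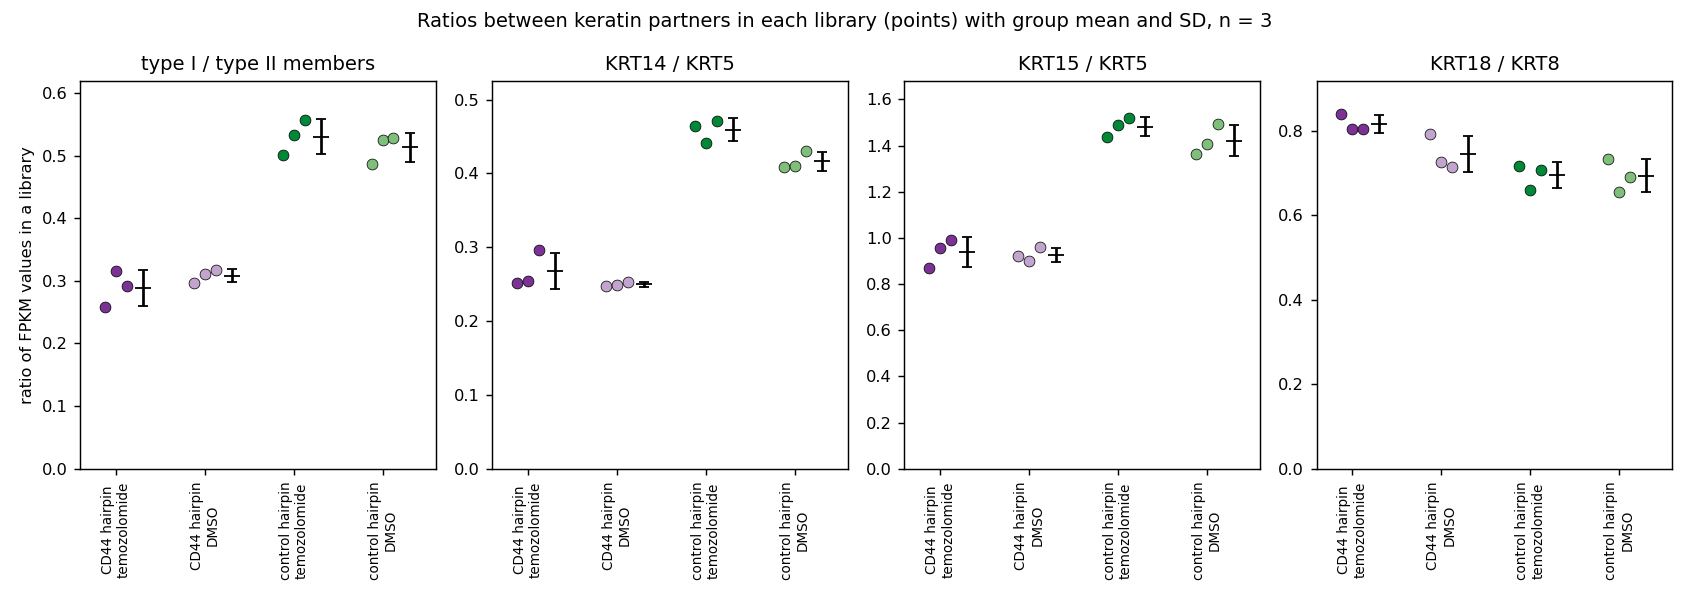
Ratios of FPKM values within each library (points), with the mean and SD of each group (dash and bars, n = 3), for summed type I over type II members and for 3 partner pairs. The 6 knockdown libraries lay below the 6 control libraries in every panel but KRT18 over KRT8. KRT14 values under the hairpins were known when the members were chosen.

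The simple-epithelial pair moved less. KRT8, the type II keratin of simple epithelium, had 240, 269 and 251.5 CPM in knockdown DMSO libraries, against 343, 354 and 356 CPM in control DMSO libraries. It had 186, 209 and 178 CPM in knockdown temozolomide libraries, against 272, 296 and 273 CPM in control temozolomide libraries. KRT8 was lower in all knockdown libraries of a treatment than in its controls, with log2 fold changes of -0.47 (SE 0.05) and -0.55 (SE 0.05). KRT18, its type I partner, had 146, 148 and 137 CPM in knockdown DMSO libraries, against 191, 175 and 185 CPM in control DMSO libraries. It had 118, 127 and 107 CPM in knockdown temozolomide libraries, against 147, 149 and 145 CPM in control temozolomide libraries. These groups did not overlap either, with log2 fold changes of -0.36 (SE 0.05) and -0.32 (SE 0.05). The ratio of KRT18 to KRT8 FPKM was 0.816 ± 0.021 in knockdown temozolomide and 0.744 ± 0.043 in knockdown DMSO, against 0.695 ± 0.031 in control temozolomide and 0.693 ± 0.039 in control DMSO libraries, and its values overlapped between knockdown DMSO and control DMSO but not between knockdown temozolomide (0.803 to 0.840) and control temozolomide (0.659 to 0.717).

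The low-level members of simple epithelium were uncertain. KRT19 had 2.06, 0.98 and 1.47 CPM in knockdown DMSO libraries, against 3.88, 3.38 and 3.58 CPM in control DMSO libraries, and a log2 fold change of -1.27 (SE 0.25). With the drug it had 1.44, 1.82 and 1.29 CPM in knockdown libraries, against 2.08, 2.60 and 3.04 CPM in control libraries. That difference, -0.72 (SE 0.25), was called (edgeR adjusted p = 0.0237), but not without control temozolomide 2 (-0.71) or 3 (-0.59) or without knockdown temozolomide 1 (-0.68) or 3 (-0.63). KRT7 had 4.13, 1.97 and 2.49 CPM in knockdown DMSO libraries, against 4.21, 2.92 and 5.23 CPM in control DMSO libraries, and these groups overlapped. Its log2 fold change of -0.55 (SE 0.26) was not called (edgeR adjusted p = 0.0967), and became -0.74 and was called without control DMSO 2, and -0.88 and was called without knockdown DMSO 1. Under temozolomide KRT7 had 2.16, 1.24 and 1.87 CPM in knockdown libraries, against 2.04, 1.94 and 2.46 CPM in control libraries, with a log2 fold change of -0.31 (SE 0.30) that was not called (edgeR adjusted p = 0.428).

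KRT80 and KRT81 differed more with the drug than with the hairpin. KRT80, a type II keratin associated with differentiating epithelia, had 228, 232 and 212 CPM in knockdown temozolomide libraries, against 392, 413 and 386 CPM in knockdown DMSO libraries. In control cells it had 288, 281 and 262 CPM with temozolomide, against 508, 502 and 496 CPM with DMSO. Drug-treated libraries were the low ones in both kinds of cells, and the log2 fold change for the drug was -0.82 (SE 0.04) in knockdown and -0.86 (SE 0.04) in control cells. For the hairpin it was -0.34 (SE 0.04) under DMSO and -0.30 (SE 0.04) under temozolomide, again with no overlap between groups.

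KRT81 had 1198, 1094 and 1109 CPM in knockdown temozolomide libraries, against 1695, 1611 and 1474 CPM in knockdown DMSO libraries. In control cells it had 1362, 1278 and 1219 CPM with temozolomide, against 1832, 1678 and 1827 CPM with DMSO. All drug-treated libraries lay below all DMSO libraries of the same cells, with log2 fold changes of -0.49 (SE 0.05) in knockdown and -0.47 (SE 0.05) in control cells. The hairpin difference was small. Under DMSO it was -0.16 (SE 0.05; edgeR adjusted p = 0.0117), with knockdown and control libraries overlapping, and it was no longer called with library totals in place of TMM (-0.12), in the limma fits to log2 FPKM (-0.12), with a GC correction (-0.06), without control DMSO 1 (-0.14) or without knockdown DMSO 3 (-0.10). Under temozolomide it was -0.18 (SE 0.05; edgeR adjusted p = 0.00462), with no overlap, and it was not called in the limma fits to log2 FPKM (-0.15). KRT81 made up 51.2% ± 2.96 of the members' summed FPKM in knockdown temozolomide and 47.6% ± 1.64 in knockdown DMSO, against 38.0% ± 1.59 in control temozolomide and 37.6% ± 1.36 in control DMSO libraries.

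**Figure D4:**
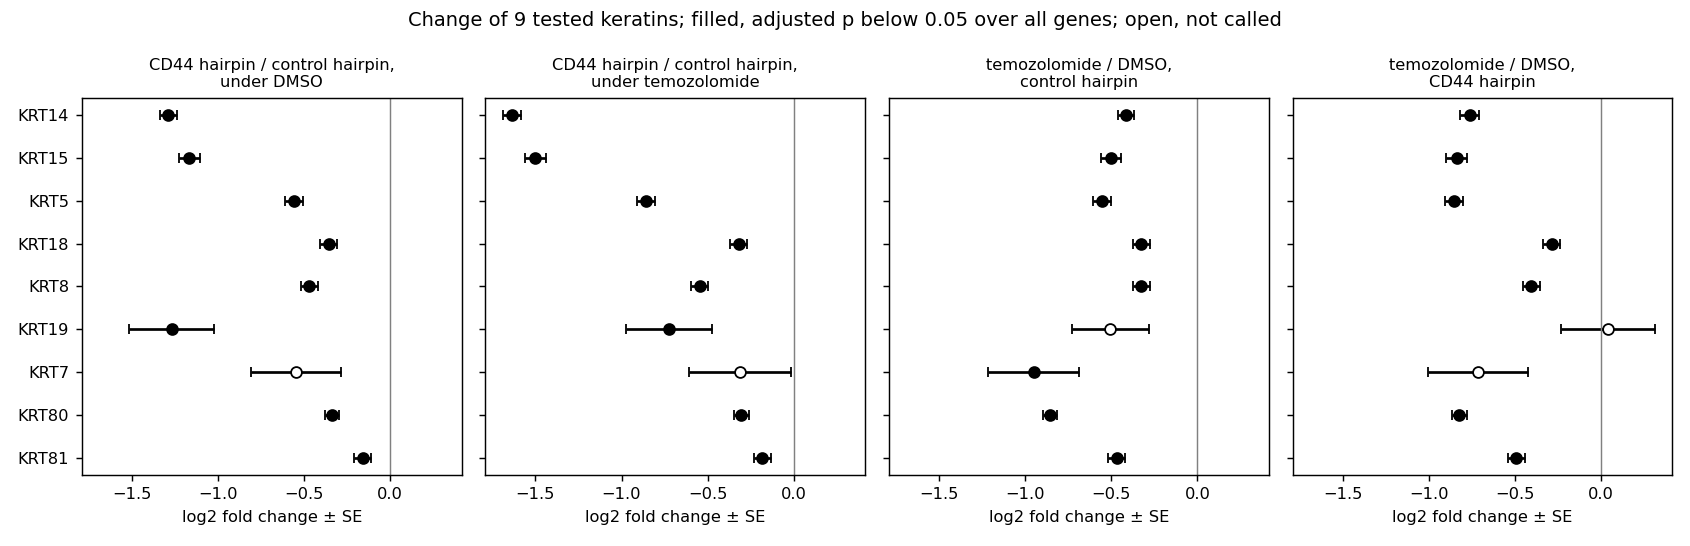
Log2 fold change with its standard error (points and bars) of the 9 tested members in 4 comparisons; filled points were called at an edgeR adjusted p below 0.05 over all genes, open points were not. KRT14 and KRT15 lie farthest left for the hairpin among the abundant members, and KRT80 for the drug in control cells.

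The basal set was lower with the drug as well. In knockdown cells temozolomide against DMSO gave -0.76 (SE 0.06) for KRT14, -0.84 (SE 0.06) for KRT15 and -0.85 (SE 0.05) for KRT5. In control cells the same values were -0.41 (SE 0.05), -0.50 (SE 0.06) and -0.55 (SE 0.05). For KRT8 and KRT18 they were -0.40 and -0.29 in knockdown cells and -0.33 and -0.32 in control cells (SE 0.05 each). KRT7 was not called in knockdown cells at -0.71 (SE 0.29; edgeR adjusted p = 0.0838) but was without knockdown DMSO 2 (-0.92). In control cells its -0.95 (SE 0.26; edgeR adjusted p = 0.0103) was called, though not without control DMSO 3 (-0.73), nor with limma on log2(FPKM + 0.1) (-0.80) or on unfiltered log2(FPKM + 1) (-0.54). KRT19 was not called, at 0.04 (SE 0.27; edgeR adjusted p = 0.939) in knockdown cells and -0.51 (SE 0.22; edgeR adjusted p = 0.101) in control cells. Groups did not overlap for 7 of 9 members in knockdown and 9 of 9 in control cells, where 19.8% and 21.6% of all genes were lower without overlap. For the hairpin these counts were 7 of 9 under DMSO and 8 of 9 under temozolomide, where 25.5% and 24.3% of all genes were.

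With both changes against neither, all 9 tested members were called lower and no group overlapped, where 24.5% of all genes were called lower, 25.4% higher, and 26.5% were lower without overlap. The log2 fold change ran from -2.05 (SE 0.05) for KRT14 to -0.64 (SE 0.05) for KRT18, with a median of -1.23 against 0.01 over all genes. KRT14 was at 24.1% and KRT15 at 25% of their control DMSO level, KRT5 at 37.6%, KRT80 at 44.8%, KRT8 at 54.6%, KRT18 at 64.0% and KRT81 at 63.7%.

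The difference of the temozolomide responses, knockdown minus control, was taken in the same model. It was called for 1 of 9 members, KRT14, where 0.616% of all genes were called lower and 0.437% higher. KRT14 differed by -0.35 (SE 0.07), and since its values were known when the members were chosen, that call is a description only. KRT15 at -0.34 (SE 0.08; edgeR adjusted p = 0.0529) and KRT5 at -0.30 (SE 0.07; edgeR adjusted p = 0.0506) lay close to the threshold without passing it, and both passed it under several other settings. The KRT14 call was lost in the limma fits to log2 FPKM (-0.35 and -0.36), and without control DMSO 1 (-0.33), knockdown DMSO 1 (-0.36) or 2 (-0.31), control temozolomide 2 (-0.36) or 3 (-0.34), or knockdown temozolomide 1 (-0.28). For KRT8, KRT18, KRT80 and KRT81 the difference lay between -0.08 and 0.04 (SE 0.06 to 0.07), and it was 0.24 (SE 0.40) for KRT7 and 0.55 (SE 0.35) for KRT19.

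Among the 7 other tested keratins, KRT16, the close copy of KRT14, was called lower for the hairpin under DMSO (-0.67, SE 0.12) and under temozolomide (-0.83, SE 0.14), and for the drug in knockdown (-0.98, SE 0.14) and in control cells (-0.83, SE 0.12). KRT16 counts were 7.07% ± 0.65 of KRT14 counts in knockdown temozolomide and 8.17% ± 1.34 in knockdown DMSO, against 3.98% ± 0.58 in control temozolomide and 5.37% ± 0.29 in control DMSO libraries. KRT86 counts were 0.135% to 0.203% of KRT81 counts in the 4 groups. KRT4, a keratin of oesophageal and oral lining, was called lower for the hairpin at -1.90 (SE 0.32) under DMSO and -2.36 (SE 0.39) under temozolomide, on 3 to 43 counts per library. KRT10, a keratin of the upper epidermis, was lower for the hairpin under temozolomide, at -0.29 (SE 0.11, edgeR adjusted p = 0.0361), with the groups overlapping. Under DMSO its hairpin difference was 0.19 (SE 0.115) and not called. KRT10 was higher with the drug in control cells, at 0.42 (SE 0.11, edgeR adjusted p = 0.00726). KRT6A and KRT86 were called lower for the drug in control cells (-0.78, SE 0.28, and -1.06, SE 0.25). KRT9 was called lower for the hairpin under temozolomide (-1.03, SE 0.37), and KRT222 in no comparison. These calls rest on low levels, at 0.57 to 2.04 CPM per library for KRT6A, 1.22 to 4.81 for KRT86 and 0.37 to 0.91 for KRT9.

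The genes most like KRT14 in pattern, by the root mean square difference of centred log2 CPM over the 12 libraries, were KRT15 (0.088), AKR1C2 (0.10), EHF (0.129), FBN2 (0.154) and CXCL14 (0.158). KRT5 ranked 81st by this measure and KRT81 ranked 1291st. For KRT81, the most abundant member, they were LBH (0.073), PHLDA1 (0.076), ANXA1 (0.081), CDH11 (0.082) and LAYN (0.083), and KRT18 ranked 149th. This is a description of 12 libraries that share groups, and a small difference is easier to reach for a gene of small range such as KRT81.

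Genes that build and anchor keratin filaments did not follow one direction with the hairpin. Of all genes tested 21.1% rose and 21.4% fell with it under DMSO, and 22.0% rose and 20.3% fell under temozolomide. Of 11 tested genes for other intermediate filaments, 3 rose and 4 fell with the hairpin under DMSO, and 4 rose and 4 fell under temozolomide (median log2 fold change 0.00 and -0.04). Vimentin was 0.19 (SE 0.03) and 0.32 (SE 0.03) higher and nestin 0.86 (SE 0.06) and 0.73 (SE 0.06) higher, whereas synemin was lower by -0.39 (SE 0.04) and -0.44 (SE 0.04). Of 9 desmosome and plakin genes, 3 rose and 2 fell under DMSO, and 1 rose and 3 fell under temozolomide (medians 0.02 and -0.02), with plakoglobin (JUP) lower by -0.65 (SE 0.06) and -0.28 (SE 0.06). Of 8 hemidesmosome genes, whose products tie basal keratins to the matrix, 4 rose and 1 fell under DMSO and 6 rose and 1 fell under temozolomide (medians 0.10 and 0.21). The 1 that fell was COL17A1, at -0.62 (SE 0.06) and -0.66 (SE 0.06), while the keratin linker plectin (PLEC) was 0.26 (SE 0.04) and 0.47 (SE 0.04) higher. Of 13 genes for keratin partners and filament turnover, 5 rose and 2 fell under either treatment (medians 0.08 and 0.29), among them the autophagy receptor SQSTM1 at 0.54 (SE 0.04) and 0.67 (SE 0.04). Of 10 epithelial transcription factors 1 rose and 4 fell under either treatment (medians -0.07 and -0.30).

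The 1 factor that rose was TFAP2A, at 0.27 (SE 0.06) under DMSO and 0.29 (SE 0.06) under temozolomide. The factors that fell include ELF3 and EHF, ETS factors of epithelial cells. ELF3 averaged 20.9 ± 1.40 CPM in knockdown temozolomide and 35.1 ± 0.36 CPM in knockdown DMSO, against 47.0 ± 3.18 CPM in control temozolomide and 77.9 ± 3.40 CPM in control DMSO libraries (SD, n = 3 each). EHF averaged 102 ± 15.7 and 208 ± 4.63 CPM in knockdown temozolomide and knockdown DMSO, against 347 ± 13.8 and 428 ± 16.5 CPM in control temozolomide and control DMSO libraries. TP63, the factor of basal epithelium, averaged 10.5 ± 1.85 and 18.6 ± 0.65 CPM in the knockdown groups, in that order, and 14.6 ± 1.14 and 18.5 ± 1.15 CPM in the control groups. With temozolomide against DMSO, 9.05% of all genes tested rose and 13.2% fell in knockdown cells, and 11.7% rose and 15.8% fell in control cells. Of the hemidesmosome genes 0 rose and 5 of 8 fell in knockdown cells and 6 of 8 in control cells. Of the other intermediate filament genes 0 rose while 6 and 5 of 11 fell. Of 9 desmosome and plakin genes 2 rose and 3 fell in knockdown cells, and 0 rose and 4 fell in control cells. Of 13 keratin partners 1 rose and 1 fell in knockdown cells, and 3 rose and 2 fell in control cells, and of 10 epithelial factors 0 rose and 3 fell in each.

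Markers of other cell types were read beside these results. Their counts of rises and falls stand against the same shares of all genes, given above. The defining epithelial genes EPCAM and CDH1 had no count in any control DMSO library and averaged at most 0.144 and 0.056 CPM in the other groups, and GRHL2 averaged at most 0.117 CPM. The 16 epithelial markers summed to 194 to 205 CPM in knockdown temozolomide and 271 to 283 CPM in knockdown DMSO libraries, against 212 to 229 CPM in control temozolomide and 297 to 307 CPM in control DMSO libraries, with CLDN1 as the largest. With the hairpin 3 of 8 tested rose and 2 fell under DMSO, and 3 rose and 1 fell under temozolomide. The 12 squamous and basal markers, which include KRT4 and KRT10, summed to 326 to 367, 439 to 475, 409 to 421 and 466 to 532 CPM in the same order of groups, with involucrin (IVL) and KRT1 at 0 in all 12 libraries. With the hairpin 1 of 7 tested rose and 2 fell under DMSO, and 1 rose and 4 fell under temozolomide. DSG3 rose under DMSO, at 1.25 (SE 0.36), and SFN under temozolomide, at 0.27 (SE 0.05). Among those that fell under either treatment was TRIM29, at -0.94 (SE 0.07) and -0.97 (SE 0.07). Of 6 mesothelial markers the 3 tested, which include KRT5, fell under either treatment; the list summed to 334 to 387, 580 to 660, 614 to 630 and 883 to 920 CPM, mostly KRT5, while CALB2 and WT1 averaged at most 0.058 and 0.036 CPM. The mesenchymal list summed to 684 to 716 CPM in knockdown temozolomide and 849 to 881 CPM in knockdown DMSO libraries, against 665 to 694 CPM in control temozolomide and 793 to 845 CPM in control DMSO libraries. The astrocytic list, which includes CD44, summed to 3876 to 4061, 4812 to 4890, 3844 to 4054 and 4962 to 5222 CPM in that order. Both lists were thus lower with the drug without overlap. With the drug 0 of 8 tested astrocytic markers rose and 6 fell in each kind of cells, and 0 of 7 mesenchymal markers rose while 4 fell in knockdown and 5 in control cells. Of 8 tested epithelial markers 0 rose and 4 fell in each, and of 7 squamous and basal ones 0 rose and 3 fell in knockdown cells and 1 rose and 4 fell in control cells. With the hairpin 3 astrocytic markers rose and 2 fell under either treatment. Those that fell were SOX2 and CD44, the target of the hairpin itself. Of the mesenchymal markers 3 rose and 2 fell under DMSO, against 2 and 2 under temozolomide. The part of other cells in the keratin results was not tested.

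The promoter table of RefSeq (GRCh38.p14) held 2 of 10 members, KRT5 and KRT8. The 250 bases before the start site listed for each were searched on either strand for exact letters. They held no TGANTCA (AP-1), TATAAA (a form of the TATA box) or GGGCGG (an SP1 or KLF box). These letters were present in 6.6%, 10.7% and 42.6% of 35116 promoters. Both windows, chr12:52520395-52520644 for KRT5 and chr12:52926470-52926719 for KRT8, lie inside the GENCODE spans of the genes. Variant spellings of these motifs and other start sites of these genes were not searched.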

How the data were processed

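Poly(A) RNA of 12 U251 libraries was sequenced, per the labels' protocols. The authors deposited a table of estimated counts per gene, in which 10.7% to 12.0% of the values of a library hold fractions, and a table of FPKM, fragments per transcript length and library total. The submitters' processing notes list RSEM, HISAT2, StringTie 1.3.1, Bowtie2 2.2.8 and fastp 0.18.0, without their order. Build and annotation: not given in the sources used here.

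Estimated counts were rounded and fitted in R 4.3.3 with edgeR 4.0.16: filterByExpr with its defaults, TMM scaling, and 1 quasi-likelihood model with 4 group means over all 12 libraries. Calls needed an adjusted p (Benjamini-Hochberg, over all 12821 genes tested) below 0.05. The biological coefficient of variation was 3.90%. Totals per library were 13506946 to 24757977, so 3 counts are 0.12 to 0.215 CPM, a limit that covers counting error only. Alternatives used DESeq2 1.42.0, limma 3.58.1, other scalings and filters, a spline for GC content with 5 degrees of freedom, a replicate block, and each library left out. The procedure was tested on simulated data.

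Members and lists were chosen with earlier results of these data known. The text names every member, CD44, other keratins that were tested, and in each list called genes without overlap between groups, up to 3 per direction by p for the hairpin. From these it describes a part, chosen after their values were seen; other genes named from lists were chosen after their values were seen. Likeness was taken for KRT14 and for the most abundant member. Replicate numbers were not used as pairs. Identity was computed on coding sequence, since protein sequences were not used here.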

Additional observations from a re-analysis of the deposited data

Results flagged for a closer look

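KRT14 stood out by the difference of its temozolomide responses between knockdown and control cells, which was called over all genes in the main analysis. In knockdown cells temozolomide against DMSO gave a log2 fold change of -0.76 (SE 0.06), and in control cells -0.41 (SE 0.05), so that knockdown minus control was -0.35 (SE 0.07). KRT14 was lower with temozolomide in every library of both kinds of cells. Over 22 other settings and left-out libraries the difference ran from -0.46 to -0.28 and the edgeR, DESeq2 or limma adjusted p from 8.06e-05 to 0.195, with the call lost in 9. KRT14 was among the members chosen with its values known, so the call is a description and no independent evidence.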

How the results depend on the processing

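Of 54 results for members, 45 kept their side of the threshold under every alternative run and 9 changed side under at least 1. A change of sign with a call in either fit occurred in 0. Differences not called did change sign in places. KRT19 for the drug in knockdown cells ran from -0.187 to 0.304 over the left-out libraries. The 9 concern KRT7, KRT19, KRT81 and, in the difference of temozolomide responses, KRT5, KRT14 and KRT15. The calls of the difference depended most on the setting: 1 member and 135 of all genes were called in the main analysis. With relative log expression factors or library totals alone 3 members were called, with DESeq2 2 and 362 of all genes, with no low-count filter 3 and 546, and with at least 1 CPM in 3 libraries 2. With the replicate block it was 3 and 222, with a GC correction 3 and 33, and with limma 0 members in each FPKM fit, with 3, 0 and 0 of all genes for log2(FPKM + 1), log2(FPKM + 0.1) and unfiltered FPKM. In the unfiltered FPKM fit 1875 genes in place of 2854 were called for the drug in knockdown cells. Causes were not tested.

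Leaving out each library in turn gave 7 to 9 members for the hairpin under DMSO, 7 to 8 under temozolomide and for the drug in either kind of cells, 9 to 9 for both changes, and 0 to 3 for the difference. Of all genes it gave 4621 to 5523 and 4686 to 5510 for the hairpin, 2095 to 2987 and 2680 to 3590 for the drug in knockdown and control cells, 5678 to 6418 for both changes, and 19 to 395 for the difference. Where a group was left with fewer libraries, its spread was taken from all groups.

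Falls made up 41.1%, 39.5%, 34.1% and 34.5% of calls in the limma fit to log2(FPKM + 0.1), for the hairpin under DMSO and under temozolomide and for the drug in knockdown and control cells. For both changes they made up 49.1%, and 28.8% with library totals; for the difference, 58.5%, and 69.7% with a GC correction. Whether libraries with the same replicate number belong together was not settled. In 18 same-numbered pairs the correlation of deviations was -0.077 to 0.14, and in pairs of different number -0.169 to 0.156. For 6 of 12 libraries the best match had their own number. With 3 libraries per group these values cannot show whether a batch was shared. With the replicate block KRT7 was called for the hairpin under DMSO (-0.55) and for the drug in knockdown cells (-0.69), and KRT5 (-0.30) and KRT15 (-0.34) for the difference. The fit to only the groups compared could not be made for the difference, which uses all 4. KRT7, KRT17 and KRT19 had under 100 counts per library, and the part of depth in their uncertain calls was not tested.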
